A study of Gallus gallus with 6 samples.

Results

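The genes described here encode the phagocyte NADPH oxidase and the small GTPase that joins it, as measured in ileal macrophages of broiler chickens. They were chosen by name, as 6 genes known for this complex: CYBB, CYBA, NCF1, NCF4, RAC2 and VAV1. Of the 27656 genes in the deposited table, 4 carried one of these names. NCF1 was taken from the row named NCF1C, because the RefSeq gene table gives NCF1 as a synonym of the gene with that Entrez identifier. That makes 5 members with values, all of them protein-coding and all of them tested, and VAV1 was not analysed here.

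RNA-seq libraries came from cells sorted with KUL01, an antibody that labels chicken macrophages, in 2 groups of 3 libraries. The LPS+LR21 birds received an injection of lipopolysaccharide (LPS, the endotoxin of Gram-negative bacteria) and Lactobacillus reuteri by gavage. The LPS birds received the injection without the gavage. Both groups therefore carried the LPS challenge, and no library of unchallenged birds was analysed here. Dose, time, age, sex and the number of birds per library are not stated in the labels. LR1_2, LR3 and LR4 are the table's column names for the LPS+LR21 libraries.

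The phagocyte oxidase is an enzyme of macrophages and granulocytes that passes electrons from NADPH across a membrane to oxygen and so makes superoxide, which helps to kill engulfed microbes. Its catalytic core is a flavocytochrome in the membrane, built from the CYBB and CYBA proteins. In resting cells the organizer NCF1 and the modulator NCF4 wait in the cytosol. On stimulation NCF1 is phosphorylated, the cytosolic proteins dock on the flavocytochrome, and RAC2 loaded with GTP joins them. Exchange factors of the Vav family load Rac proteins with GTP downstream of immune receptors, and in mammals loss of a core subunit causes chronic granulomatous disease.

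Total counts per library ranged from 31284679 to 45492503. Genes with a count numbered 22493, 18811 and 24539 in LR1_2, LR3 and LR4, against 23087 to 23525 in the LPS libraries. A listed marker counts here as in the table if a row carried its symbol. For heterophil markers a RefSeq synonym also counted. Other listed markers can be present under another name. Of 26 macrophage markers (members left out) 22 were in the table, and none was at 0 throughout. Their summed level was 1292, 3010 and 1147 FPKM in LR1_2, LR3 and LR4, against 3860 to 4743 FPKM in the LPS libraries, where FPKM is fragments per kilobase of transcript, scaled to library size. Of 30 intestinal epithelial markers 25 were in the table, and they summed to 9182, 2145 and 6059 FPKM in LR1_2, LR3 and LR4, against 621 to 1081 FPKM in the LPS libraries. Of 15 T and NK cell markers 13 were in the table, with sums of 329, 460 and 341 FPKM in LR1_2, LR3 and LR4, against 138 to 180 FPKM in the LPS libraries. Heterophils, the avian granulocytes, also use this oxidase: 9 of their 13 markers were in the table and summed to 73.5, 372 and 97.6 FPKM in LR1_2, LR3 and LR4, against 252 to 1226 FPKM in the LPS libraries. Of these markers S100A12 alone had 23.6, 179 and 32.7 FPKM in LR1_2, LR3 and LR4. Its values in LPS1, LPS2 and LPS3 were 32.5, 203 and 920 FPKM. CSF3R, also on this list, had 48.4, 190 and 61.05 FPKM in LR1_2, LR3 and LR4. In LPS1, LPS2 and LPS3 CSF3R had 215, 199 and 292 FPKM. The cathelicidin gene CATH2 had no count in LR1_2 and LR3 and 0.151 to 5.45 FPKM in the LPS libraries. CATH1 had no count in LR1_2 and LR4 and 0.185 to 2.03 FPKM in the LPS libraries. Of 8 tested heterophil markers 7 were fitted below 0, and LYG2 was above it (log2 fold change 1.01). Of the tested markers 1 macrophage gene, VSIG4, was called lower, 11 epithelial genes were called higher, and no T and NK or heterophil gene was called (edgeR, as below). Of 10 tested stromal markers 6 were fitted below 0 and 4 above it. The collagen genes COL1A2 and COL3A1 were called lower (log2 fold changes -2.30 and -2.40). The endothelial marker CDH5 had 2.09 and was not called. The 11 stromal markers summed to 21.6, 32.5 and 24.5 FPKM in LR1_2, LR3 and LR4, against 44.4 to 77.0 FPKM in the LPS libraries. No B-cell, dendritic, thrombocyte or erythrocyte marker was called. LR3 thus stood between the LPS libraries and the other LPS+LR21 libraries in summed macrophage and epithelial markers, and the part of these differences in the results below was not tested.

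The comparison asks how the oxidase genes of ileal macrophages from LPS-injected birds differed when L. reuteri was given. All 5 members had lower fitted values in the LPS+LR21 libraries, with log2 fold changes between -1.80 for CYBB and -0.90 for RAC2. None passed the test (quasi-likelihood F test of edgeR, adjusted p after Benjamini and Hochberg between 0.0835 and 0.606), while 0.0819% of the 20745 tested genes were called lower and 1.06% were called in either direction. At an unadjusted p under 0.05, CYBB and CYBA were lower, as were 4.6% of all tested genes. The median log2 fold change was -1.12 over the members and -0.14 over all tested genes. In bulk RNA, fewer cells of a type and less RNA per cell cannot be told apart.

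**Figure D1:**
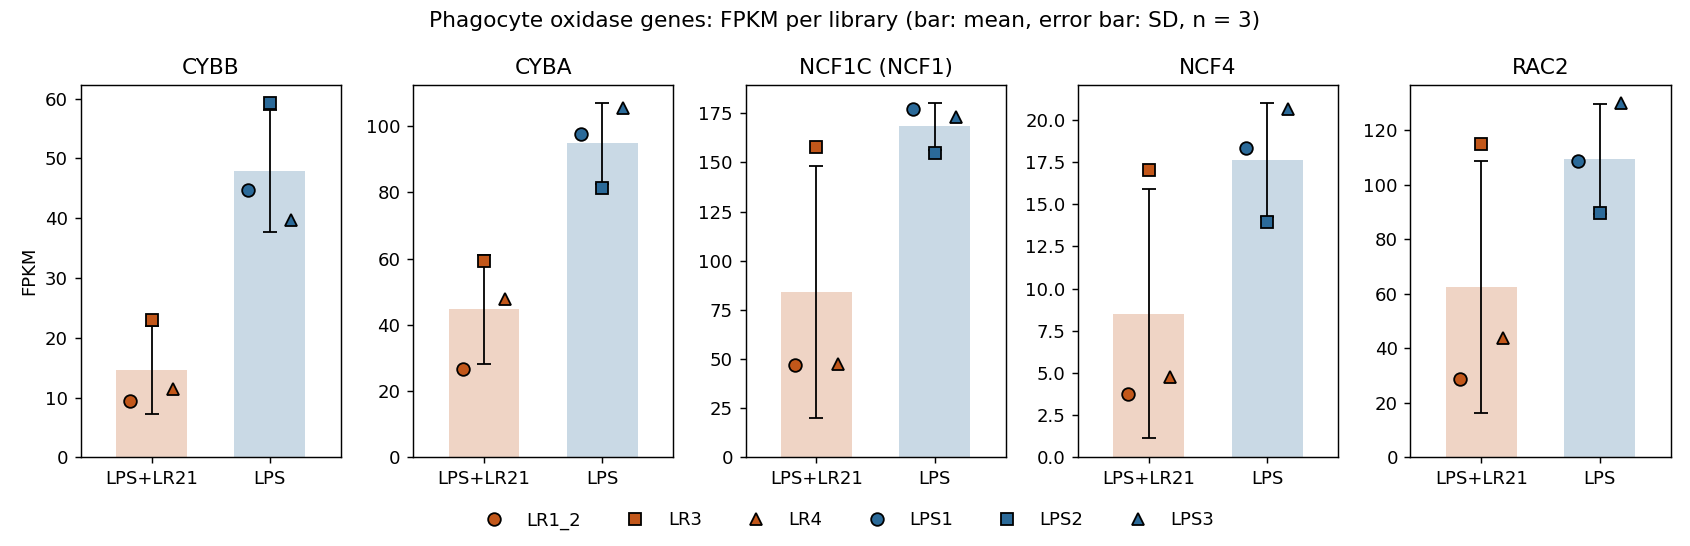
FPKM of the 5 measured members in each library, with LPS+LR21 left of LPS; bars are means and error bars SD over 3 libraries, and each point is a library. CYBB and CYBA lie lower in all 3 LPS+LR21 libraries than in any LPS library, whereas LR3 reaches the LPS range for NCF4 and RAC2 and lies at 158 FPKM, inside the LPS range, for NCF1C.

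The membrane subunits were the members whose groups did not overlap. CYBB encodes the heme- and flavin-binding subunit that carries the electrons (ENSGALG00010001865, chromosome 1, 113249544 to 113283490, minus strand, genome build not stated). It had 9.45, 23.0 and 11.5 FPKM in LR1_2, LR3 and LR4, against 44.7, 59.3 and 39.7 FPKM in LPS1, LPS2 and LPS3. Every LPS+LR21 library lay below every LPS library, and LR3 was the highest of its group. The means were 14.7 ± 7.32 FPKM in LPS+LR21 and 47.9 ± 10.2 FPKM in LPS (SD, n = 3 each), so the LPS+LR21 mean was 0.306 of the LPS mean. The log2 fold change of CYBB was -1.80 ± 0.42 (SE, adjusted p = 0.0835, edgeR's quasi-likelihood test), the smallest p among the members.

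CYBA encodes the partner that stabilizes CYBB and offers the docking site for NCF1 (ENSGALG00010009637, chromosome 11, 18067098 to 18069213, minus strand). It had 26.8, 59.3 and 47.9 FPKM in LR1_2, LR3 and LR4, against 97.6, 81.4 and 105 FPKM in LPS1, LPS2 and LPS3. As for CYBB, the groups did not overlap, with LR3 nearest to the LPS libraries. The log2 fold change of CYBA was -1.21 ± 0.36 (SE), which did not pass (adjusted p = 0.162, edgeR's quasi-likelihood test). Over all tested genes, 7.1% had non-overlapping groups with LPS+LR21 lower by CPM, counts scaled to library size. CYBA shares bases at its ends with IL17C on the opposite strand and MVD on the same strand, and the assignment of reads there is uncertain. IL17C had 11 to 25 counts per library and MVD 308 to 977, and CYBA had 2001 to 7752.

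The cytosolic subunits followed another library pattern. NCF1C, the chicken NCF1 gene, encodes the organizer that bridges the cytosolic and membrane parts (ENSGALG00010029377, chromosome 19, 3137616 to 3144491, minus strand). The deposited table describes it as a pseudogene but lists it as protein-coding. It had 47.2, 158 and 47.4 FPKM in LR1_2, LR3 and LR4, against 177, 155 and 173 FPKM in LPS1, LPS2 and LPS3. LR1_2 and LR4 lay far below the LPS libraries and close to each other, while LR3 lay within the LPS range. The means were 84.2 ± 63.9 FPKM in LPS+LR21 and 168 ± 12.1 FPKM in LPS (SD, n = 3 each), with a log2 fold change of -1.07 ± 0.52 (SE) that did not pass (adjusted p = 0.480, edgeR's quasi-likelihood test).

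NCF4, which binds phosphatidylinositol 3-phosphate on the phagosome membrane and modulates the oxidase there, was the lowest member (ENSGALG00010014840, chromosome 1, 51616377 to 51626768, minus strand). It had 3.75, 17.1 and 4.78 FPKM in LR1_2, LR3 and LR4, against 18.3, 14.0 and 20.6 FPKM in LPS1, LPS2 and LPS3. LR3 was above LPS2, so the groups overlapped, and the log2 fold change of -1.12 ± 0.59 (SE) did not pass (adjusted p = 0.526, edgeR's quasi-likelihood test).

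RAC2, the Rac GTPase of blood cells, which is also used by lymphocytes, had the fitted value nearest to 0 (ENSGALG00010014418, chromosome 1, 51341381 to 51463267, plus strand). It had 28.6, 115 and 43.7 FPKM in LR1_2, LR3 and LR4, against 109, 89.6 and 130 FPKM in LPS1, LPS2 and LPS3. LR3 exceeded both LPS1 and LPS2, so the groups overlapped. The log2 fold change of RAC2, -0.90 ± 0.53 (SE), did not pass (adjusted p = 0.606, edgeR's quasi-likelihood test). CYTH4, a gene on the opposite strand, lies wholly inside the RAC2 span and had 1575 to 5385 counts per library, against 4657 to 20834 for RAC2. Whether the counting used strand is not stated, and the split of reads between RAC2 and CYTH4 is therefore uncertain. The ends of RAC2 also overlap ELFN2 and SSTR3 on the same strand, which had at most 59 and 464 counts.

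RAC1, the widely expressed relative of RAC2, varied little between libraries. It had 72.9, 85.7 and 72.6 FPKM in LR1_2, LR3 and LR4, against 85.5, 87.3 and 90.1 FPKM in LPS1, LPS2 and LPS3, and its log2 fold change was -0.31 ± 0.28 (SE), which did not pass (adjusted p = 0.816, edgeR's quasi-likelihood test). The ratio of RAC2 to RAC1 in FPKM was 0.393, 1.34 and 0.602 in LR1_2, LR3 and LR4, against 1.27, 1.03 and 1.44 in LPS1, LPS2 and LPS3. RAC2 thus exceeded RAC1 in LR3 and in the LPS libraries and was below it in LR1_2 and LR4. RAC1 and RAC2 are similar in sequence, and reads that match both could be split by the counting. RAP1A, a small GTPase found with the flavocytochrome, had a log2 fold change of -0.70 ± 0.39 (SE), and CYBC1, a chaperone needed to build the flavocytochrome, had -0.16 ± 0.49 (SE), and neither passed (adjusted p = 0.561 and 0.963, edgeR's quasi-likelihood test). CYBC1 was highest of all 6 libraries in LR3, at 15.8 FPKM, against 4.39 FPKM in LR1_2, 5.98 FPKM in LR4 and 8.20 to 10.6 FPKM in the LPS libraries.

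**Figure D2:**
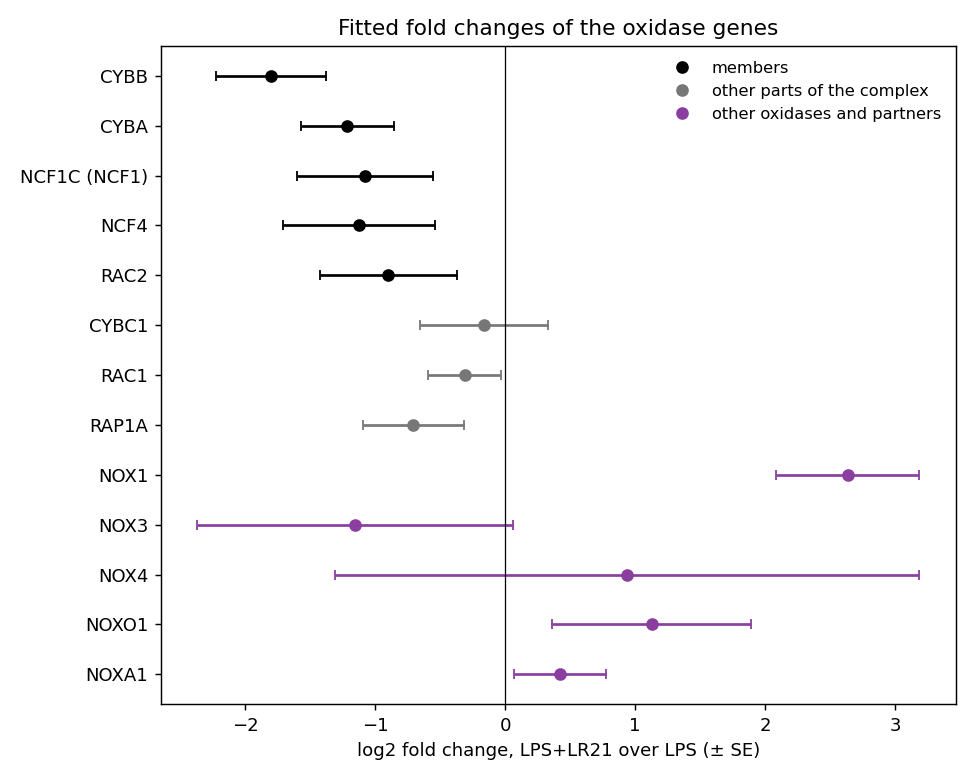
Fitted log2 fold change (LPS+LR21 over LPS, horizontal axis) with SE for the 5 members in black, CYBC1, RAC1 and RAP1A in grey and the other NADPH oxidases and their partners in purple. The members run from -1.80 (CYBB) to -0.90 (RAC2), RAC1 and CYBC1 lie near 0, and NOX1 lies at 2.64; no gene in the plot passed the test.

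On the per-length scale the members kept nearly the same order of levels. NCF1C was highest, followed by RAC2, CYBA, CYBB and NCF4, in LR1_2, LR3 and the 3 LPS libraries, and in LR4 CYBA stood above NCF1C and RAC2. In the LPS libraries RAC2 (89.6 to 130 FPKM) and CYBA (81.4 to 105 FPKM) were the neighbours whose ranges overlapped. In the LPS+LR21 libraries CYBA, at 26.8 FPKM or more, stayed above CYBB, at 23.0 FPKM or less, and all other neighbours overlapped. Among tested genes, the mean LPS+LR21 level stood at percentile 81.0 for NCF4 and at percentiles 87.2 to 97.2 for the others. The mean LPS level stood at percentile 90.3 for NCF4 and at percentiles 95.9 to 98.8 for the others.

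Measured against the LPS mean, LR3 stood apart from LR1_2 and LR4. On the log2(CPM + 1) scale the 5 members lay between -2.31 and -1.79 in LR1_2, between -1.03 and 0.09 in LR3 and between -2.03 and -0.97 in LR4. In LR3, CYBB lay at -1.03 and CYBA at -0.66, while NCF1C, NCF4 and RAC2 lay at -0.09, -0.03 and 0.09. The membrane subunits were thus the lower ones in LR3, and the cytosolic subunits and RAC2 were near the LPS mean. PTPRC, the leukocyte surface phosphatase CD45, lay at -1.96, 0.28 and -1.13 in those libraries, in the same order. The median of the macrophage markers was -1.87, -0.40 and -1.66 in LR1_2, LR3 and LR4, that of the T and NK markers was 0.25, 1.23 and 0.87, and that of the heterophil markers was -1.48, -1.13 and -1.28. The T-cell receptor component gene CD3E had 44.1, 130 and 74.6 FPKM in LR1_2, LR3 and LR4, against 27.2, 43.0 and 33.1 FPKM in LPS1, LPS2 and LPS3. Genes of that list did not all follow CD3E in LR3. CD3D was also highest there, at 55.7, 149 and 86.6 FPKM in LR1_2, LR3 and LR4. GZMA (200, 123 and 140 FPKM) and BCL11B (8.56, 5.29 and 8.77 FPKM) were lowest of their group in LR3. The part of T and NK cells in the RAC2 level of LR3 was not tested.

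**Figure D3:**
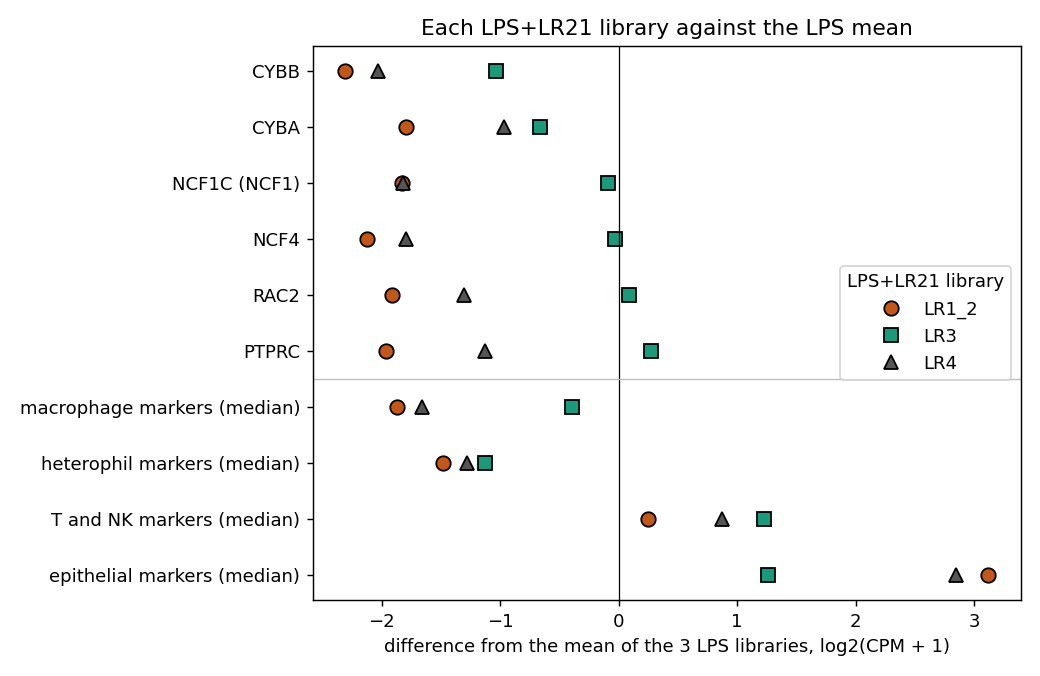
Difference of each LPS+LR21 library from the mean of the 3 LPS libraries on the log2(CPM + 1) scale, for the 5 members, PTPRC and the median of 4 marker lists. LR3 lies nearest to 0 for every member, at -1.03 for CYBB and 0.09 for RAC2, and epithelial markers are highest in LR1_2 (3.12) and lowest in LR3 (1.27).

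Which members were called differed with LR3, the tool and the filter. Without LR3, all 5 were called lower, with log2 fold changes of -2.30 for CYBB, -1.50 for CYBA, -1.93 for NCF1C, -2.18 for NCF4 and -1.75 for RAC2 (adjusted p between 0.00192 and 0.0146, edgeR's quasi-likelihood test), in a fit that called 3.82% of 22486 genes lower. With library quality weights in limma-voom, all 5 were called lower, in a fit that called 4.32% of all tested genes lower. Such weights are estimated from how far each library's values lie from its own group, and they are not given here. That fit is therefore no separate support for the calls made without LR3. By edgeR, no member was called when any other single library was left out, and those fits called 0 of all tested genes. CYBB and CYBA were called lower by DESeq2 (adjusted p = 0.00106 and 0.0255), which called 3.02% lower of the 11874 genes to which it gave an adjusted p. CYBB alone of the members was called lower in limma-voom with TMM scaling (adjusted p = 0.0261, 0.294% of genes called lower) and with quantile scaling (adjusted p = 0.0452, 0.101% called lower), and by edgeR among genes with a mean of at least 1 FPKM (adjusted p = 0.0496, 0.516% called lower).

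Relative to other macrophage genes, the differences were smaller. Each member's FPKM was divided by the geometric mean of the 21 macrophage markers with a mean of at least 1 FPKM, and the log2 ratios were compared by exact permutation tests over 3 against 3 libraries, two-sided, where the smallest possible p is 0.10. For CYBB the log2 ratio was -0.95, -1.08 and -0.77 in LR1_2, LR3 and LR4, against -0.54, -0.15 and -0.71 in LPS1, LPS2 and LPS3. All 3 LPS+LR21 values were below all 3 LPS values, a mean difference of -0.46 (exact permutation p = 0.10, adjusted over 5 members p = 0.50). The differences were 0.18 for CYBA, 0.09 for NCF1C, -0.04 for NCF4 and 0.29 for RAC2, with overlapping groups (exact permutation p between 0.30 and 0.90). Scaled to the summed counts of the macrophage markers in edgeR, which moved the median log2 fold change of all genes to 1.48, CYBB had -0.51 and NCF4 -0.02, CYBA had 0.22, NCF1C 0.08 and RAC2 0.29, and none passed (adjusted p between 0.447 and 0.979).

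**Figure D4:**
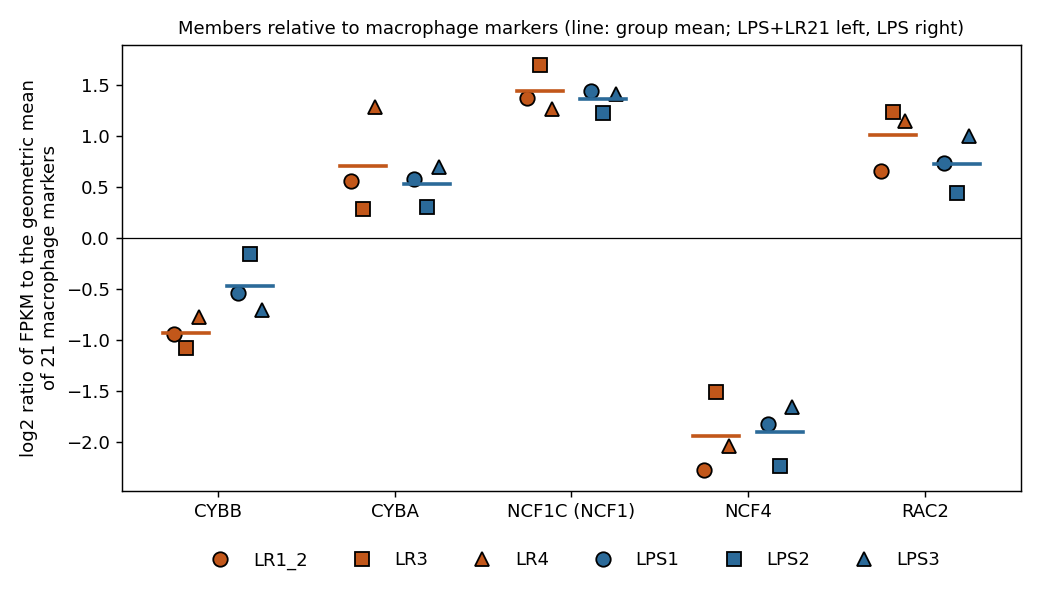
Log2 ratio of each member's FPKM to the geometric mean FPKM of 21 macrophage markers, per library, with LPS+LR21 left of LPS for each gene and group means as lines. CYBB is lower in all 3 LPS+LR21 libraries (-1.08 to -0.77) than in the LPS libraries (-0.71 to -0.15), and the groups of the other 4 members overlap.

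The members' proportions to each other overlapped between the groups in most pairs. The ratio of CYBA to CYBB in FPKM was 2.84, 2.58 and 4.17 in LR1_2, LR3 and LR4, against 2.18, 1.37 and 2.65 in LPS1, LPS2 and LPS3, with overlapping groups. That of NCF1C to CYBB was 5.00, 6.86 and 4.12 in LR1_2, LR3 and LR4, against 3.97, 2.61 and 4.35 in LPS1, LPS2 and LPS3, also with overlap. The ratio of CYBB to PTPRC, chosen after its values were seen, was 0.612, 0.314 and 0.416 in LR1_2, LR3 and LR4, against 0.826, 0.893 and 0.644 in LPS1, LPS2 and LPS3, and its groups did not overlap. For RAC2 the ratio to PTPRC was 1.85, 1.57 and 1.58 in LR1_2, LR3 and LR4, against 2.01, 1.35 and 2.11 in LPS1, LPS2 and LPS3, with overlapping groups. The ratio of NCF1C to NCF4 was 12.6, 9.26 and 9.90 in LR1_2, LR3 and LR4, against 9.69, 11.1 and 8.38 in LPS1, LPS2 and LPS3, also with overlap. The ratio of NCF4 to RAC2 did not overlap, at 0.131, 0.148 and 0.109 in LR1_2, LR3 and LR4, against 0.169, 0.156 and 0.159 in LPS1, LPS2 and LPS3. It too was chosen after its values were seen. Ratios calculated but not printed here overlapped, among them NCF4 to CYBB, RAC2 to CYBB and NCF1C to RAC2. No test was made of the ratios, and with 3 against 3 libraries even groups without overlap cannot go below an exact p of 0.10.

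Of 10 other NADPH oxidases and their partners, 6 were matched to a row by name and had at most 7.60 FPKM in any library. DUOX1, DUOX2, DUOXA1 and DUOXA2 were not matched to a single row, so their levels were not measured here. Of the 5 tested genes of this list 4 were fitted above 0 and NOX3 below it. NOX1, an oxidase known from colon epithelium in mammals, had 5.34, 3.22 and 5.15 FPKM in LR1_2, LR3 and LR4, against 0.605, 0.315 and 1.04 FPKM in LPS1, LPS2 and LPS3. All 3 LPS+LR21 libraries were above all LPS libraries, with LR3 the lowest of its group as for the epithelial markers. How many of all tested genes were separated in this direction is not given here. The log2 fold change of NOX1 was 2.64 ± 0.55 (SE) and did not pass (adjusted p = 0.0607, edgeR's quasi-likelihood test). NOX1 was called higher with library totals (adjusted p = 0.0460), DESeq2 (0.000116), limma-voom with TMM (0.0382) or quality weights (0.00486), at a mean of at least 1 FPKM (0.0481), scaled to the macrophage markers (0.00452) and without LR3 (0.0137). In that order those fits called 300, 1002, 305, 1060, 236, 4483 and 1086 genes higher. The genes with an adjusted p in them numbered 20745, 11874, 20745, 20745, 9884, 20745 and 22486. NOX1 was not called in the other alternatives (adjusted p between 0.0506 and 0.267). Its organizer NOXO1 had 4.09, 0.509 and 2.78 FPKM in LR1_2, LR3 and LR4, against 0.408, 0.921 and 1.66 FPKM in LPS1, LPS2 and LPS3, with overlapping groups (log2 fold change 1.13, adjusted p = 0.693). The activator NOXA1 did not pass (log2 fold change 0.42, adjusted p = 0.787) at 6.78 to 7.60 FPKM in LPS+LR21 and 3.55 to 6.92 FPKM in LPS. NOX3 (log2 fold change -1.16, adjusted p = 0.856) and NOX4 (0.94, adjusted p = 0.955) had at most 0.379 and 0.411 FPKM in any library, NOX4 with no count in LR1_2, LR3 and LPS3, and NOX5 had a count in LR1_2 and LPS2 only (7 and 19 counts) and was too low to be tested. Whether NOX1 transcripts came from epithelial cells was not tested.

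Genes around the oxidase were read from 9 lists, of which 101 genes were tested. Of these, 1 rose, none fell and 100 did not pass, against 1.06% called over all genes, and 76 had a fitted value below 0. The share of all tested genes fitted below 0 is not given here or for the single lists below. The median log2 fold change of all tested genes was -0.14. The 1 called gene was PAK1, a kinase activated by Rac that can phosphorylate NCF1 in mammals. PAK1 had 32.1, 14.1 and 25.5 FPKM in LR1_2, LR3 and LR4, against 4.35, 3.38 and 2.26 FPKM in LPS1, LPS2 and LPS3. It was higher in every LPS+LR21 library and lowest of its group in LR3, as the summed epithelial markers were, and its log2 fold change was 2.70 ± 0.39 (SE; adjusted p = 0.0373 by edgeR's quasi-likelihood test). Its call was lost when any library other than LR3 was left out (log2 fold change 2.38 to 2.95, adjusted p between 0.121 and 0.225). Those fits called 0 of all tested genes, so the loss was not particular to PAK1.

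Among the 27 tested kinases and phospholipases upstream of assembly, the median log2 fold change was -0.69 and 22 were fitted below 0. The protein kinase C gene PRKCA had 1.85 (adjusted p = 0.0835), opposite in sign to most of the list, and did not pass. ABR, whose protein inactivates Rac, comes from another list and did not pass either, at -0.96 (adjusted p = 0.231, edgeR's quasi-likelihood test).

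All 8 tested receptors and adaptors that trigger the oxidase were fitted below 0, with a median of -1.28 and none called. The median of the 22 tested macrophage markers was -1.29. The adaptor LAT2 had -1.35 (adjusted p = 0.123) and the platelet-activating factor receptor PTAFR had -1.35 (adjusted p = 0.273, edgeR's quasi-likelihood test). Of the 5 genes of ion transport at the phagosome, STIM1 and ORAI1, the sensor and the channel of store-operated calcium entry, had -0.97 each (adjusted p = 0.246 and 0.342), and the list's median was -0.87. The 10 transcription factors that act on phagocyte oxidase genes in mammals had a median of -0.64 with 9 fitted below 0. CEBPB had -1.64 and MEF2C -1.48 (adjusted p = 0.229 and 0.244, edgeR's quasi-likelihood test), and neither passed.

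Genes that supply NADPH or remove the products of the oxidase did not lean one way. The 5 NADPH supply genes had a median log2 fold change of -0.18, close to the -0.14 of all tested genes. ME1, the cytosolic malic enzyme, had -1.21 and NNT, the mitochondrial transhydrogenase, had 0.64 (adjusted p = 0.159 and 0.398, edgeR's quasi-likelihood test). Of the 14 genes that remove superoxide and hydrogen peroxide, 7 were fitted below 0 and 7 above it, with a median of -0.12. SOD1, the cytosolic superoxide dismutase, had 157, 76.1 and 148 FPKM in LR1_2, LR3 and LR4, against 51.0, 47.3 and 53.7 FPKM in LPS1, LPS2 and LPS3. The log2 fold change of SOD1 was 1.17 and did not pass (adjusted p = 0.145, edgeR's quasi-likelihood test). GPX3, a secreted glutathione peroxidase, had 27.6, 33.3 and 18.5 FPKM in LR1_2, LR3 and LR4, against 107.8, 90.0 and 36.3 FPKM in LPS1, LPS2 and LPS3 (log2 fold change -1.65, adjusted p = 0.135, edgeR's quasi-likelihood test).

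The genes whose pattern over the 6 libraries was most like the members' mean standardized log2(CPM + 1) were CTSC, SNAP91, LAMP1, CMKLR1 and ARHGEF6, with Pearson's r between 0.996 and 0.998. CTSC encodes the lysosomal protease cathepsin C and had 36.9, 125 and 48.7 FPKM in LR1_2, LR3 and LR4, against 173, 165 and 179 FPKM in LPS1, LPS2 and LPS3. LAMP1 encodes a lysosomal membrane protein, CMKLR1 a chemerin receptor and ARHGEF6 an exchange factor for Rac. An r above 0.95 was not rare, with 318 of 8193 candidate genes (3.88%) reaching it. The points of each r are the same 6 libraries, which differ in depth and in marker levels as given above, and no test was made of them.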

How the data were processed

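The authors deposited raw counts and FPKM per gene and library, per the file headers. Tools named in the submitters' processing notes, with no roles, are HISAT2 2.0.4, StringTie 1.3.4d, cutadapt 1.9 and edgeR. Poly(A) RNA was captured on oligo(dT) beads, per the labels' protocols. Columns LR1_2, LR3 and LR4 do not carry the titles' numbers and were used as replicates of LPS+LR21 without further identity, and 3 FPKM columns were not used. FPKM was recomputed for all libraries from counts, column totals and the lengths implied by the deposited LPS FPKM. For 9889 genes with at least 100 counts in each LPS library it lay within 5% of the deposited LPS values. Because the lengths came from those values, close agreement was partly built in. The recomputed FPKM of the LPS+LR21 libraries were not compared with deposited values.

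Genes were tested with edgeR 4.0.16 in R 4.3.3 (filterByExpr, TMM, glmQLFit, glmQLFTest, group as the only term), with Benjamini-Hochberg adjustment over 20745 genes, two-sided, at 0.05. Standard errors were derived as log2 fold change over root F. Alternatives used DESeq2 1.42.0, limma 3.58.1, other scalings and filters, and left out each library. Members and lists were chosen with earlier results of these data known. Named were all members, all listed oxidase components, the 2 genes of smallest p and any called gene in each other list, and the 5 genes most like the members, and some items under this rule are not reported here. Separate birds per library are not stated. The p-values therefore reflect variation among these libraries, possibly technical. Total counts per library are given as a range with the results.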

Additional observations from a re-analysis of the deposited data

How the results depend on the processing

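No paired analysis was possible because the numbers of the LPS+LR21 columns are not those of the titles. Genes called numbered 219, against 1361 with DESeq2, 366 with limma-voom, 1956 with quality weights, 110 with quantile scaling and 4487 scaled to the macrophage markers. Leaving out 1 library gave 0 to 1945, where 0 came with each library other than LR3 (1643 to 2764 genes at an unadjusted p under 0.05, edgeR). Members called numbered 0, against 2 with DESeq2, 1 with limma-voom, 5 with quality weights, 1 with quantile scaling, 1 at a mean of at least 1 FPKM and 0 to 5 leaving out 1 library. Genes called in the lists around the oxidase numbered 1, against 2 with library totals, 14 with DESeq2, 2 with limma-voom, 45 with quality weights, 2 at 1 FPKM, 20 scaled to the macrophage markers and 0 to 44 leaving out 1 library.

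The log2 fold change of CYBB stayed below 0 in all 15 alternatives and passed in 6: -1.77 with DESeq2, -1.94 with limma-voom, -2.22 with quality weights, -1.92 with quantile scaling, -1.90 at 1 FPKM and without LR3, with a range of -2.30 to -1.51 leaving out 1 library. CYBA passed with DESeq2 (-1.19), with quality weights (-1.53) and without LR3 (range -1.50 to -0.95). With quality weights NCF1C, NCF4 and RAC2 passed at -1.80, -2.002 and -1.61, and leaving out 1 library gave -1.93 to -0.67, -2.18 to -0.73 and -1.75 to -0.53. Scaled to the macrophage markers, where the median of all genes was 1.48 and not -0.14, the sign turned for CYBA (0.22), NCF1C (0.082), RAC2 (0.29), CYBC1 (1.03), RAC1 (1.19), RAP1A (0.63), NOX3 (0.75), PTPRC (0.42), ABR (0.44), LAT2 (0.20), STIM1 (0.51), ORAI1 (0.37), ME1 (0.18), LAMP1 (0.70) and ARHGEF6 (0.38), none of them called. Leaving out 1 library gave CYBC1 a range of -0.96 to 0.18 and NOX4 a range of -6.11 to 1.56, and NOX4 also turned in limma-voom (-0.99) and with quality weights (-0.86). Relative to the macrophage markers, leaving out 1 library gave CYBA -0.11 to 0.39, NCF1C -0.041 to 0.18 and NCF4 -0.25 to 0.13 around 0. The cause of these changes was not tested. The common biological coefficient of variation was 0.773, with 3 libraries a group and 31284679 or more counts in each.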

Other observations

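RAC2 and NCF4 lie on the same strip of chromosome 1, with 153109 bases and 10 listed genes between them in the table's coordinates. Of the 9 tested genes between them 5 were fitted below 0 and none was called (edgeR's quasi-likelihood test).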
